A study of Mus musculus with 15 samples.

Results

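The ligand TGFβ1, its receptors, its SMAD messengers, the integrin chains that release it and a TGFβ-induced matrix gene were followed across the myeloid populations of the small intestinal lamina propria (LP). The set was a named list of 10 genes among the 19938 genes with a probeset of their own, namely *Tgfb1*, *Tgfbr1*, *Tgfbr2*, *Eng*, *Smad2*, *Smad3*, *Smad7*, *Itgav*, *Itgb8* and *Tgfbi*, and each of them was read by 1 probeset. RNA came from steady-state WT mice, in which no receptor gene was deleted, and from 5 sorted populations with 3 arrays each, 15 arrays in all. The CD64+ macrophages (mϕ) are labelled by CD64, and the paper gives their gate as CD45+Ly6C-MHCII+CD64+CD11b+. The 4 dendritic cell (DC) subsets, all CD64-, were named by CD103 and CD11b as CD103-CD11b-, CD103+CD11b+, CD103-CD11b+ or CD103+CD11b-. All populations came from the small intestine of untreated animals after removal of epithelium and Peyer's patches and digestion of the LP with collagenase, and the number of mice behind each array is not given in the sources used here. The p-values therefore measure the spread between these arrays, which may be partly technical.

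TGFβ is made as a latent dimer that is held inside its own propeptide until it is set free, for example when an αv integrin pulls on that propeptide. The free ligand brings TGFβ receptor 2 and TGFβ receptor 1 together, and receptor 1 phosphorylates SMAD2 and SMAD3, which join SMAD4 in the nucleus and bind DNA, while SMAD7 is itself induced and shuts the receptor down. In the intestine TGFβ is known for restraining inflammation, for the making of regulatory T cells and for inducing CD103 on T cells and DCs.

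Values are log2 signals of the deposited table. A gene passed a comparison at a Benjamini-Hochberg adjusted p from limma under 0.01 over all genes with a log2 difference above 1 up or down, and "rose", "fell", "higher than" and "lower than" are used of a comparison only in that sense. The median of all probesets was 4.74 to 4.86 on the 15 arrays, between 7255 and 7547 genes per array had a signal over 6, and arrays of 1 population correlated at 0.978 to 0.995 across genes. The labels held for the genes used in the sort. *Fcgr1*, which encodes CD64, had a signal of 8.69 to 9.08 in mϕ and 3.69 to 5.02 in DCs. *Itgam*, which encodes CD11b, was 10.07 to 10.42 in mϕ, 9.44 to 9.65 in both CD11b+ DC subsets and 4.76 to 7.02 in both CD11b- subsets. *Itgae*, which encodes CD103, was 10.24 to 10.96 in both CD103+ subsets and 4.87 to 8.96 elsewhere, and the DC genes *Flt3* and *Zbtb46* were lower in all 3 mϕ arrays than in every DC array. Genes listed as markers of other cells also gave signal, and whether it came from other cells or from the sorted cells was not tested. The mean of 7 pancreatic genes was 4.80 to 8.93 and differed between arrays of the same population, and the mean of 12 epithelial genes was 6.38 to 8.0. The paper lists 2 of these 12 as genes unique to CD103+CD11b+ DCs. The mean of 5 T cell genes was 5.99 to 6.26 in mϕ and 4.65 to 5.40 in DCs, with *Cd4* and *Cd3g* the 2 of 5 that passed and *Cd4* at 8.42 to 9.55 in mϕ, against 5.27 to 5.92 in DCs. The mean of 5 B and plasma cell genes was highest on average in CD103-CD11b- DCs, at 8.57 to 9.15 against 7.04 to 8.58 elsewhere, and that of 7 fibroblast genes was 4.69 to 5.46 throughout.

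The 10 genes followed 3 patterns, shown in the plot of log2 signals by population. *Tgfbr1*, *Tgfbr2*, *Eng*, *Smad3*, *Itgav* and *Tgfbi* were highest in mϕ, *Smad7* was highest in the CD11b+ DC subsets, and *Tgfb1*, *Smad2* and *Itgb8* passed in none of the 10 pairs of populations. The other 7 passed in at least 1 pair, as 11% of all genes did. *Tgfbi* alone separated most DC subsets from each other and passed in 9 of the 10 pairs. *Tgfb1* and *Tgfbi* were among the brighter genes of the arrays, with a mean signal above that of 96.8% and 93.4% of all genes, while *Itgb8* lay above 22.5% of genes. Such levels are probeset signals and are not per transcript length, so they are not compared between members.

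**Figure D1:**
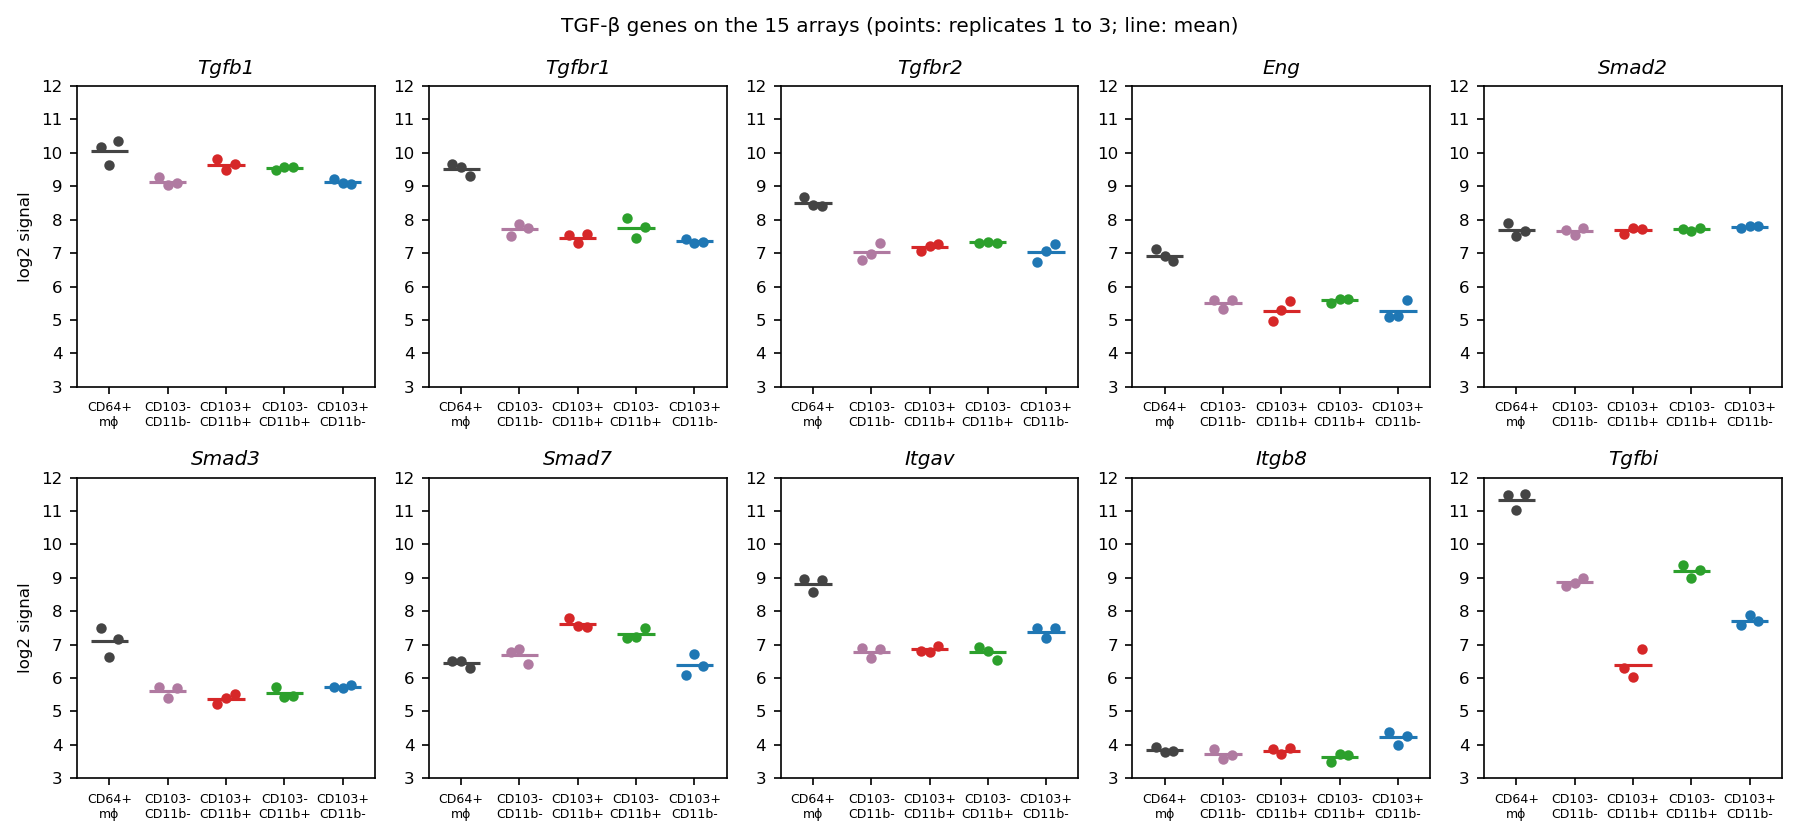
Log2 signal of the 10 TGFβ genes on the y axis for each of the 15 arrays, grouped by population on the x axis, with points for replicates 1 to 3 and a line at the mean. The mϕ points of *Tgfbr1*, *Tgfbr2*, *Eng*, *Smad3*, *Itgav* and *Tgfbi* all lie above every DC point, *Smad2* is level at 7.52 to 7.90, and *Tgfbi* spreads over population means of 6.40 to 11.34.

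Promoter sequence is shown for the 3 members with the largest differences in mϕ among those with 1 window and a motif in it, *Tgfbi*, *Itgav* and *Eng*. The windows are the 250 bases before the annotated start, from RefSeq on GRCm38.p6, all on the plus strand, and 8 of the 10 members had 1 or more windows. *Tgfbi* spans chr13:56609586-56639359, *Itgav* chr2:83722303-83806917 and *Eng* chr2:32646595-32682669, where the window precedes a start inside the *Itgav* span, and the windows are chr13:56609336-56609585, chr2:83724147-83724396 and chr2:32646345-32646594. Capitals mark the SMAD site CAGAC and the ETS core GGAAGT, read on either strand, so that GTCTG and ACTTCC are the same letters on the other strand. The motifs were chosen after the signals were seen, and the marked motifs do not overlap.
Tgfbi: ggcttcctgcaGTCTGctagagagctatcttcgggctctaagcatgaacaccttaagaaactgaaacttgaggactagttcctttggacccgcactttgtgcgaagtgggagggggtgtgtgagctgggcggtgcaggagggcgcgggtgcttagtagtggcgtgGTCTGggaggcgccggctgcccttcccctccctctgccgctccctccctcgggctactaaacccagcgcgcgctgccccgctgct
Itgav: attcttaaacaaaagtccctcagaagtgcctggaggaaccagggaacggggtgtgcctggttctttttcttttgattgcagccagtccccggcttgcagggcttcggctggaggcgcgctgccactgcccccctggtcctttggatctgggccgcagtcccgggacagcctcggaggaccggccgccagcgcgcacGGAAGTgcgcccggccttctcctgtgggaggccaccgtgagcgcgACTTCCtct
Eng: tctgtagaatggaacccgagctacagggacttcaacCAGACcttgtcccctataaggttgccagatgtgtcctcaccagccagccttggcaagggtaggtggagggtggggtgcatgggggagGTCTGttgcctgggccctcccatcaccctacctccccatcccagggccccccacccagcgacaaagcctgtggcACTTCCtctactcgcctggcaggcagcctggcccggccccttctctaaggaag
CAGAC lay in the *Tgfbi* window with its first base at -239 and -85 from the start, both on the minus strand, and in the *Eng* window at -214 on the plus and -127 on the minus strand. GGAAGT lay in the *Itgav* window at -54 on the plus and -9 on the minus strand, and in the *Eng* window at -53 on the minus strand. Among all 32851 windows of this length, 42.2% held CAGAC, 19.7% GGAAGT and 12.4% the TATA box TATAAA, which was in none of the members' windows. CAGAC was also in the windows of *Tgfbr2* at -160 and *Itgb8* at -196 and in 1 of the 2 windows of *Tgfbr1*, at -203, while those of *Tgfb1* and *Smad3* held none of the 3 motifs. These matches are counts of letters only.

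*Tgfb1* encodes the ligand TGFβ1. Its log2 signal was 10.18, 9.65 and 10.34 in mϕ, 9.28, 9.03 and 9.09 in CD103-CD11b- cells, 9.81, 9.49 and 9.66 in CD103+CD11b+ cells, 9.49, 9.57 and 9.57 in CD103-CD11b+ cells and 9.23, 9.11 and 9.08 for the CD103+CD11b- subset. The mϕ were highest by mean, but their lowest array lay among the CD11b+ DC arrays, and the 2 CD11b+ subsets lay above the 2 CD11b- subsets with no overlap. The difference between mϕ and the mean of the 4 DC subsets was 0.69 ± 0.11 (SE; adjusted p = 2.8e-04 by limma, n = 3 mϕ and 12 DC arrays), which is under the limit of 1. It was 0.92 against both CD103+CD11b- and CD103-CD11b- DCs, and 1.12 against each when mϕ replicate 2 was left out, with adjusted p of 2.1e-06 and 2.7e-06, so that *Tgfb1* then passed. It also passed with array weights (1.02 against each, adjusted p of 5.3e-06 and 1.6e-05) and without the array richest in pancreatic transcripts of each population (1.10 and 1.07, adjusted p of 1.0e-04 and 1.6e-04). The mϕ replicate 2 array had the lowest *Tgfb1* signal of the 3 mϕ arrays and the highest mean of epithelial genes among them, 7.87 against 6.49 and 6.38 in the others, and the part of those transcripts in the result was not tested. Of 3 platelet genes *Pf4* was 11.01 to 11.36 in mϕ and 3.93 to 4.72 in DCs, while *Itga2b* and *Gp9* did not pass, at means of 4.69 and 4.28 in mϕ.

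The receptor chains rose in mϕ. *Tgfbr1* encodes the signalling kinase of the receptor pair, the gene that the wider study deleted in CD11c+ cells of other mice. In WT cells its signal was 9.66, 9.57 and 9.32 in mϕ, 7.52, 7.86 and 7.74 in CD103-CD11b- cells, 7.53, 7.30 and 7.56 in CD103+CD11b+ cells, 8.04, 7.46 and 7.78 in CD103-CD11b+ cells and 7.42, 7.30 and 7.33 for the CD103+CD11b- subset. Every mϕ array was above every DC array. The difference between mϕ and the mean of the DC subsets was 1.95 ± 0.11 (SE), or 3.85-fold, with an adjusted p of 3.6e-09 by limma. Among DCs the means ran from 7.35 in CD103+CD11b- to 7.76 in CD103-CD11b+ DCs, and no step between neighbouring means passed. In bulk RNA, more cells with the transcript and more transcript per cell cannot be told apart, here and in the results that follow.

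*Tgfbr2*, the chain that binds TGFβ and activates receptor 1, had a signal of 8.67, 8.44 and 8.40 in mϕ, 6.79, 6.96 and 7.29 in CD103-CD11b- cells, 7.06, 7.21 and 7.28 in CD103+CD11b+ cells, 7.31, 7.34 and 7.30 in CD103-CD11b+ cells and 6.73, 7.05 and 7.28 for the CD103+CD11b- subset. The mϕ arrays did not overlap with the DC arrays, and the 4 DC subsets overlapped with each other except that all CD103-CD11b+ arrays were just above all others. The difference from the DC mean was 1.37 ± 0.11 (SE; adjusted p = 2.3e-07 by limma), and no pair of DC subsets passed. *Eng* encodes endoglin, an accessory receptor for TGFβ and BMP ligands that is best known from endothelium. Its signal was 7.11, 6.90 and 6.76 in mϕ and 4.97 to 5.64 over the 12 DC arrays, so that it was over 6 only in mϕ. The difference was 1.51 ± 0.13 (SE; adjusted p = 3.0e-07 by limma). The mean of 8 endothelial genes was 4.37 to 4.47 in mϕ and 4.38 to 4.67 in DCs, and none of the 8 passed. These means lie below the median of the gene means, 5.11, and the part of endothelial transcripts in the result was not tested.

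The SMAD genes went 3 ways. *Smad2*, which encodes a receptor-activated SMAD, was level. Its signal was 7.90, 7.52 and 7.65 in mϕ and 7.53 to 7.82 over the 12 DC arrays, its population means lay within 0.14, and the test for any difference among the 5 populations gave an adjusted p of 0.817 by limma. The difference between mϕ and the DC mean was -0.01 with a 95% confidence interval of -0.18 to 0.15, which leaves out changes as large as those of the receptors. *Smad3* encodes the other receptor-activated SMAD of the pathway and had a signal of 7.50, 6.62 and 7.17 in mϕ, 5.72, 5.40 and 5.71 in CD103-CD11b- cells, 5.22, 5.40 and 5.53 in CD103+CD11b+ cells, 5.74, 5.43 and 5.45 in CD103-CD11b+ cells and 5.73, 5.71 and 5.79 for the CD103+CD11b- subset. All mϕ arrays were above all DC arrays, with the lowest of them again replicate 2. *Smad3* rose in mϕ by 1.53 ± 0.14 (SE), or 2.88-fold, with an adjusted p of 6.0e-07 by limma. In CD103+CD11b+ DCs its mean was 5.38, against 5.74 for the CD103+CD11b- subset, with no overlap of arrays, and this difference of -0.36 did not pass (adjusted p = 0.047).

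*Smad7* encodes the inhibitory SMAD that TGFβ induces and that blocks the receptor. It was the only member that was higher in a DC subset than in mϕ. Its signal was 6.50, 6.50 and 6.31 in mϕ, 6.79, 6.87 and 6.41 in CD103-CD11b- cells, 7.81, 7.57 and 7.52 in CD103+CD11b+ cells, 7.21, 7.23 and 7.49 in CD103-CD11b+ cells and 6.10, 6.71 and 6.35 for the CD103+CD11b- subset. The CD103+CD11b+ arrays were above all others, the CD103-CD11b+ arrays came next, and the remaining populations overlapped. *Smad7* was higher in CD103+CD11b+ than in CD103+CD11b- DCs by 1.25 ± 0.15 (SE), or 2.38-fold, with an adjusted p of 1.6e-04 by limma. It was lower in mϕ than in CD103+CD11b+ DCs by a difference of -1.20 ± 0.15 (SE; adjusted p = 3.9e-05 by limma). The differences of 0.92 for CD103-CD11b+ minus CD103+CD11b- DCs (adjusted p = 0.00141) and of -0.95 for CD103-CD11b- minus CD103+CD11b+ DCs (adjusted p = 0.00116) did not reach the limit of 1. The first became 1.08 without CD103+CD11b- replicate 2, and the second -1.0 without CD103+CD11b+ replicate 3 and -1.04 without CD103-CD11b- replicate 2, each past both limits.

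The activating integrins differed between their chains. *Itgav* encodes the αv chain, which pairs with several β chains and holds latent TGFβ. Its signal was 8.97, 8.58 and 8.92 in mϕ, 6.89, 6.60 and 6.86 in CD103-CD11b- cells, 6.82, 6.79 and 6.96 in CD103+CD11b+ cells, 6.94, 6.82 and 6.54 in CD103-CD11b+ cells and 7.50, 7.19 and 7.49 for the CD103+CD11b- subset. The mϕ arrays were above all DC arrays, and within DCs the CD103+CD11b- arrays were above all others. *Itgav* rose in mϕ by 1.87 ± 0.11 (SE) over the DC mean, or 3.66-fold, with an adjusted p of 3.3e-09 by limma. Its differences from CD103+CD11b- DCs were -0.61 in the CD103-CD11b-, -0.54 in the CD103+CD11b+ and -0.63 in the CD103-CD11b+ subset, under the limit of 1.

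*Itgb8* encodes the β8 chain, which with αv releases active TGFβ and is known in mouse DCs for its part in making regulatory T cells. Its signal was 3.94, 3.79 and 3.82 in mϕ, 3.88, 3.58 and 3.71 in CD103-CD11b- cells, 3.87, 3.72 and 3.90 in CD103+CD11b+ cells, 3.49, 3.74 and 3.71 in CD103-CD11b+ cells and 4.40, 4.01 and 4.26 for the CD103+CD11b- subset. All 15 values were under 6 and below the median of the gene means, 5.11, and the deposited values carry no detection call. The 3 CD103+CD11b- arrays were nevertheless the 3 highest. The test for any difference among the 5 populations gave an adjusted p of 0.0077 by limma, which 19.6% of all genes passed at 0.01, and the differences from CD103+CD11b- DCs were -0.50 in the CD103-CD11b- subset, -0.40 in the CD103+CD11b+ subset, -0.58 in the CD103-CD11b+ subset and -0.38 in mϕ, none over the limit of 1. At so low a signal the fold change on an array may understate the change in RNA. Both αv and β8 were highest, among DCs, in the CD103+CD11b- arrays.

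*Tgfbi* encodes a secreted matrix protein, TGFβ-induced protein, which binds collagens and integrins. It had the widest range of the 10 genes. Its signal was 11.47, 11.03 and 11.52 in mϕ, 8.76, 8.85 and 9.0 in CD103-CD11b- cells, 6.31, 6.02 and 6.86 in CD103+CD11b+ cells, 9.39, 8.99 and 9.22 in CD103-CD11b+ cells and 7.58, 7.88 and 7.71 for the CD103+CD11b- subset. No arrays overlapped between populations except those of CD103-CD11b- and CD103-CD11b+ DCs, which met at 9.0 and 8.99. *Tgfbi* was 30.6-fold higher in mϕ than in CD103+CD11b+ DCs, with a log2 difference of 4.94 ± 0.19 (SE; adjusted p = 7.9e-11 by limma), and 4.40-fold higher than in CD103-CD11b+ DCs, the nearest DC subset. It fell by 2.80 in CD103+CD11b+ DCs against CD103-CD11b+ DCs (SE 0.19, adjusted p = 6.9e-05 by limma), or 6.96-fold.

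Within DCs, *Tgfbi* was lower in the CD103+ subset of either CD11b class, and the size of that difference was not the same in both classes. The difference of CD103+ from CD103- DCs was -2.80 in CD11b+ and -1.14 in CD11b- DCs. The difference between these, the interaction, was -1.65 ± 0.26 (SE), with an adjusted p of 0.00148 by limma, in a test that 1.97% of all genes passed. No other member passed it. The interaction was 0.63 for *Smad7* (adjusted p = 0.159) and -0.52 for *Itgav* (adjusted p = 0.184). Without the array richest in pancreatic transcripts of each population, on 10 arrays, the interaction of *Tgfbi* was -1.37 with an adjusted p of 0.0282 and no longer passed. The CD11b- subsets also differed in lineage genes. The mean of 4 genes of conventional DC type 1 (cDC1) was 8.36 to 8.82 in CD103-CD11b- and 10.48 to 10.81 in CD103+CD11b- cells. That of 4 type 2 (cDC2) genes was 7.58 to 7.66 and 5.23 to 5.48. The paper calls the CD103-CD11b- subset phenotypically heterogeneous. A difference tied to CD103 and one in cell make-up cannot be told apart here.

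Macrophage transcripts moved with *Tgfbi* in part, as the plot of *Tgfbi* beside mϕ markers shows. The mean of 11 mϕ genes was 10.05 to 10.26 in mϕ, 5.02 to 6.25 in CD103-CD11b- cells, 5.40 to 5.62 in CD103+CD11b+ cells, 6.42 to 6.82 in CD103-CD11b+ cells and 4.80 to 4.90 for the CD103+CD11b- subset. Of these 11 genes, 5 were lower in CD103+CD11b+ than in CD103-CD11b+ DCs and 0 higher, 7 were higher in CD103-CD11b+ than in CD103+CD11b- DCs and 0 lower, and 2 were higher in CD103+CD11b+ than in CD103+CD11b- DCs and 0 lower. The median difference of the 11 was -0.93 in the first of these pairs, 1.53 in the second and 0.47 in the third, where the differences of *Tgfbi* were -2.80, 1.48 and -1.32. In CD103-CD11b- replicates 1, 2 and 3 the mean of the 11 mϕ genes was 6.25, 5.02 and 5.18, and *Tgfbi* was 8.76, 8.85 and 9.0. *C1qc*, which had the widest spread of the 11 there, was 9.57 in replicate 1, against 5.72 in each of the other 2 arrays. The part of such transcripts in the differences of *Tgfbi* between DC subsets was not tested.

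**Figure D2:**
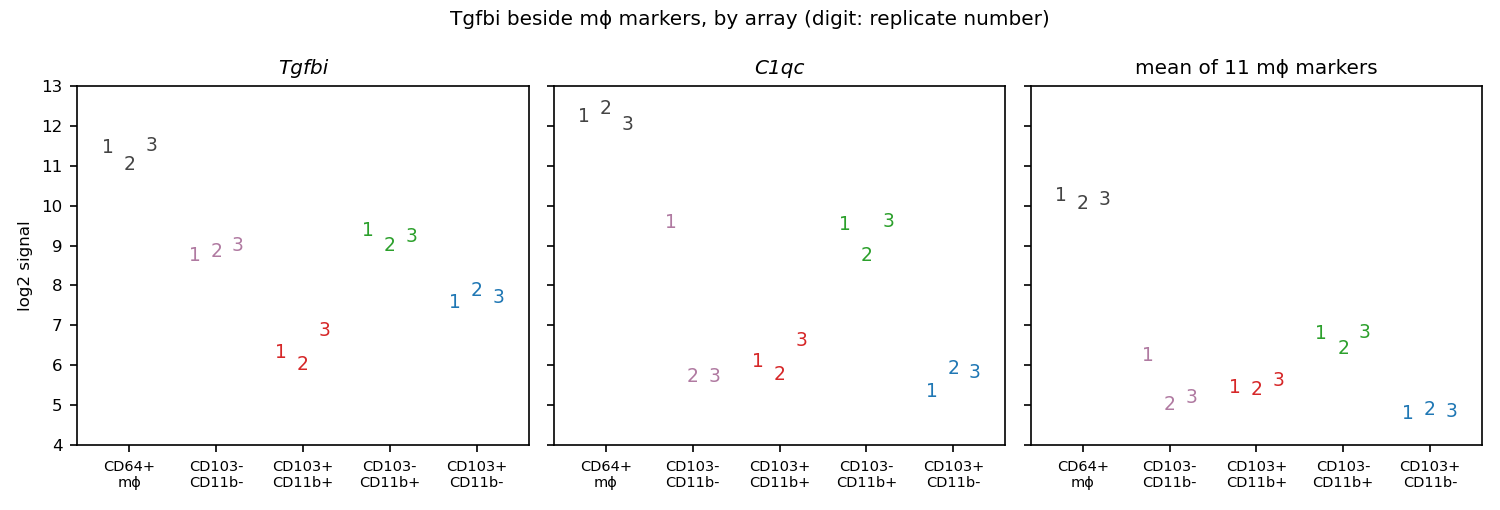
Log2 signal on the y axis of *Tgfbi*, of the complement gene *C1qc* and of the mean of 11 mϕ genes for each array, by population on the x axis, with the digit giving the replicate. CD103-CD11b- replicate 1 stands at 9.57 for *C1qc*, the mϕ gene with the widest spread there, at 6.25 for the mean of the 11 and at 8.76 for *Tgfbi*.

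Set against the mean of the 4 DC subsets, 6 of the 10 genes were higher in mϕ and 0 lower, where 3.38% of all genes were higher and 2.19% lower. The median difference of the 10 was 1.44, and that of all genes was -0.004. The same 6 genes, *Tgfbr1*, *Tgfbr2*, *Eng*, *Smad3*, *Itgav* and *Tgfbi*, were higher in mϕ than in each DC subset, with *Smad7* lower against CD103+CD11b+ DCs only. Of all genes, 3.73% were higher in mϕ against the CD103-CD11b-, 3.34% against the CD103+CD11b+, 3.02% against the CD103-CD11b+ and 4.04% against the CD103+CD11b- subset, and 2.34% were lower against the CD103+CD11b+ subset. These comparisons share the mϕ arrays and are not independent. The 11 mϕ marker genes all passed as well, with a median difference of 4.79.

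**Figure D3:**
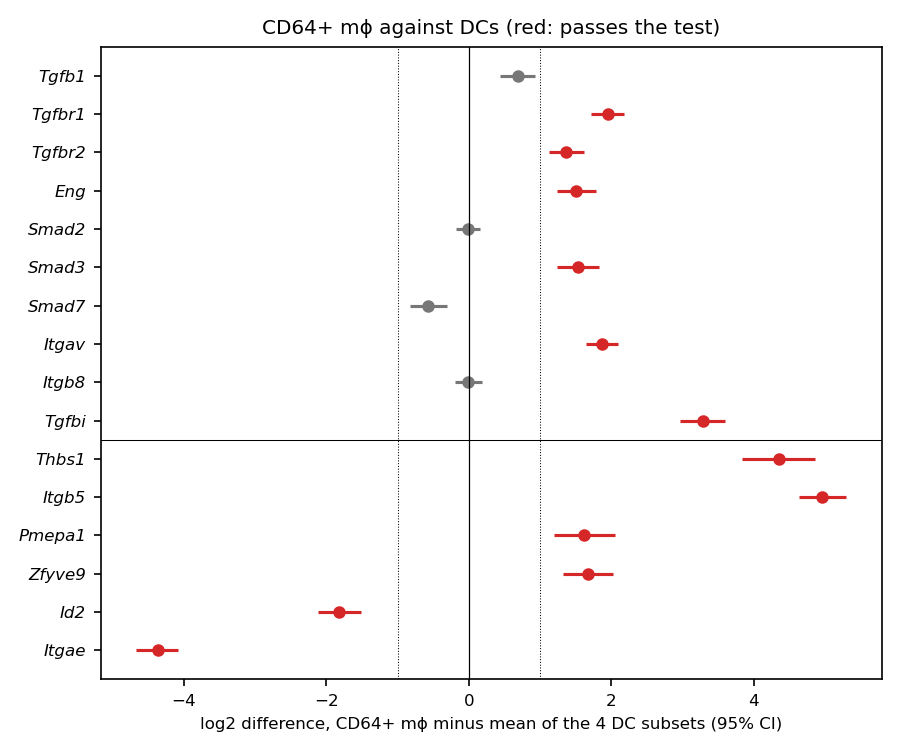
Log2 difference of mϕ minus the mean of the 4 DC subsets with its 95% confidence interval on the x axis, for the 10 TGFβ genes above the line and, below it, the 6 other pathway genes that passed. Red marks genes that passed and dotted lines mark a difference of 1 either way; *Tgfbi* stands at 3.29 among the 10 and *Itgb5* at 4.96 among the others, while *Itgae* stands at -4.37.

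Between DC subsets few members passed, as the plot of the 3 pairs of DC subsets shows. In CD103+CD11b+ against CD103+CD11b- DCs, *Smad7* rose and *Tgfbi* fell, 2 of 10 where 3.28% of all genes passed, and the difference of *Tgfbi* was -1.32 ± 0.19 (SE; adjusted p = 5.3e-04 by limma). Without the array richest in pancreatic transcripts of each subset, that difference was -1.06 (adjusted p = 0.0189) and no longer passed. In CD103-CD11b+ against CD103+CD11b- DCs, *Tgfbi* rose by 1.48 (adjusted p = 2.4e-04), 1 of 10 where 3.32% passed. In CD103+CD11b+ against CD103-CD11b+ DCs, *Tgfbi* was the 1 of 10 that passed, where 0.537% of genes did. The 3 pairs share arrays. CD103-CD11b- DCs had higher *Tgfbi* than CD103+CD11b+ DCs, by 2.47 (adjusted p = 1.2e-06; 1 of 10, with 1.93% of genes passing), and than CD103+CD11b- DCs, by 1.14 (adjusted p = 7.4e-04; 1 of 10, with 2.66% passing). Against CD103-CD11b+ DCs 0 of 10 passed by limma, where 0.808% of genes did. A share of 1 or 2 in 10 rests on 1 or 2 genes and was not tested as a share.

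**Figure D4:**
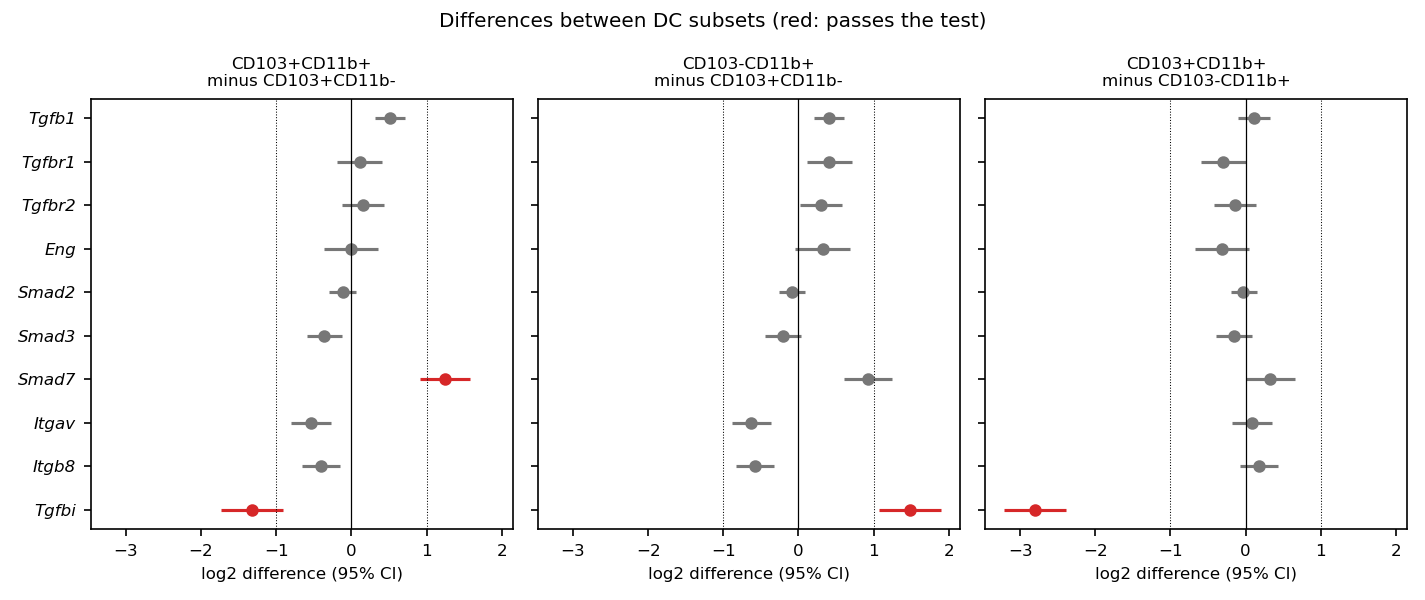
Log2 difference with its 95% confidence interval on the x axis for the 10 TGFβ genes in the 3 pairs of DC subsets fitted together, with red for genes that passed and dotted lines at a difference of 1 either way. *Smad7* at 1.25 and *Tgfbi* at -1.32 are red in the first panel, and *Tgfbi* alone is red in the others, at 1.48 and -2.80.

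The wider pathway was read from a list of 46 measured genes, of which 10 passed in at least 1 pair of populations, where 11% of all genes did. The largest rises in mϕ were in activators. *Thbs1* encodes thrombospondin 1, a matrix protein that can activate latent TGFβ, and its signal was 10.24, 10.69 and 9.97 in mϕ and 4.75 to 7.56 over the DC arrays. It was higher in mϕ than the DC mean by 4.35 ± 0.24 (SE; adjusted p = 2.5e-09 by limma). Between DCs it was higher for the CD103-CD11b+ subset, at 7.56, 6.38 and 6.29, than for the CD103+CD11b- subset, at 4.75, 5.46 and 5.63. The difference was 1.46 ± 0.31 (SE; adjusted p = 0.00774 by limma). The CD103+CD11b+ arrays, at 6.35, 6.41 and 6.30, lay within the range of the CD103-CD11b+ arrays. They were also above all CD103+CD11b- arrays, but that pair did not pass. *Itgb5* encodes the β5 partner of αv and was 10.25, 9.47 and 10.28 in mϕ and 4.47 to 5.93 in DCs, a difference of 4.96 ± 0.15 (SE; adjusted p = 5.8e-12 by limma). The β chain genes *Itgb1*, *Itgb3* and *Itgb6* did not pass against the DC mean. Of 10 ligand and latency genes, *Thbs1* and *Nrros* passed between DCs. *Nrros*, whose product anchors latent TGFβ on myeloid cells, had a mean of 8.09 for CD103+CD11b+ and 8.46 for CD103-CD11b+ cells, against 7.05 for CD103+CD11b- cells, differences of 1.05 and 1.42 (adjusted p = 1.9e-04 and 1.9e-05 by limma).

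Of 10 further receptor genes, *Acvrl1*, which encodes the type 1 receptor ALK1, was the 1 that passed. Its signal was 8.24, 8.26 and 8.57 in mϕ, 7.87, 7.23 and 7.79 in CD103-CD11b- cells, 7.37, 7.19 and 7.60 in CD103+CD11b+ cells, 7.22, 7.67 and 7.83 in CD103-CD11b+ cells and 9.03, 9.06 and 9.07 for the CD103+CD11b- subset. The CD103+CD11b- arrays were above all other arrays, and the differences of the other DC subsets from them were -1.42, -1.67 and -1.48 (adjusted p of 7.6e-05, 1.7e-05 and 4.4e-05 by limma). Of 5 further SMAD genes, 0 were among those that passed in a pair. Of 9 regulators, 2 were higher in mϕ than the DC mean: *Pmepa1*, a TGFβ-induced inhibitor of SMAD activation, by 1.62 (adjusted p = 1.8e-05), and *Zfyve9*, which encodes the SMAD anchor SARA, by 1.67 (adjusted p = 1.5e-06). Another regulator, *Tgif1*, which encodes a corepressor of SMADs, passed in pairs only, with a signal of 9.14, 9.52 and 8.88 in mϕ, against 8.32, 8.05 and 7.85 in CD103-CD11b- cells and 8.10, 8.20 and 8.19 for the CD103+CD11b- subset, differences of 1.10 and 1.02 (adjusted p of 5.0e-05 and 9.0e-05 by limma). The *Pmepa1* arrays overlapped between mϕ, at 9.10 to 10.38, and CD103+CD11b- DCs, at 8.58 to 9.15. Between DCs *Pmepa1* was lower for the CD103-CD11b+ subset, with a mean of 7.73, than for the CD103+CD11b- subset, with a mean of 8.84. Its mean was 8.52 in CD103+CD11b+ and 7.97 in CD103-CD11b- cells, and no other pair of DC subsets passed for it. Of 8 target genes, *Itgae* fell in mϕ by 4.37, and *Id2*, a transcriptional inhibitor needed by cDC1, fell by 1.82 (adjusted p = 1.1e-07 by limma). The sort on CD103 applied to the DC subsets only, as mϕ were sorted as CD64+ cells. *Itgae* had a mean of 5.09 in mϕ, against 7.84 and 8.76 for the CD103- subsets with and without CD11b. *Runx3*, a transcription factor gene, was higher in CD103-CD11b+ cells, at 9.92, 9.97 and 9.94, than in CD103+CD11b- cells, at 9.18, 8.83 and 8.80. The difference was 1.0 (adjusted p = 5.8e-05 by limma). The arrays of CD103+CD11b+ cells, at 9.75 to 9.89, and of CD103-CD11b- cells, at 9.73 to 9.78, were also all above those of CD103+CD11b- cells. Neither of these pairs passed. Over all 46 genes 4 were higher and 2 lower in mϕ than the DC mean, and their median difference was 0.11.

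For each member whose population means ranged over more than 1, the genes with the most similar pattern were ranked by Pearson's r over the 15 arrays among 2319 genes with such a range. The arrays come from 5 populations, so r follows mainly the 5 means and is a description. The patterns most like *Tgfbr1* were those of *Fgd4* (r = 0.991), *Rab3il1* (0.983) and *Cd163* (0.982), and those most like *Tgfbr2* were *Cemip2* and *Myo7a* (0.972 each) and *Blvrb* (0.971). *Eng* went with *Lrp1* (0.973), *Trem2* (0.971) and *Pld1* (0.969), *Smad3* with *Slc28a2* (0.981), *C5ar2* (0.978) and *Iigp1* (0.971), and *Itgav* with *Sema6d* (0.979), *Tmem86a* and *Iigp1* (0.972 each). All of these were genes highest in mϕ. *Smad7*, which followed the CD11b+ DCs, was most like *Cd101* and *Slc16a3* (0.942 each) and *Cd209c* (0.936), and *Tgfbi* was most like *Ccr2* (0.960), *Csf3r* (0.956) and *Glul* (0.952).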

How the data were processed

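The authors processed the scans of Affymetrix Mouse Gene ST arrays by Robust Multi-array Average (RMA), and the deposited values are log2 signals, background corrected, quantile normalized and summarized per probeset. Quantile normalization removes differences in total RNA between populations. RNA of sorted cells was amplified before labelling. Of 35556 probesets, 21789 had 1 symbol in the array annotation, 1621 had several and 12146 were not listed there. The probeset with the highest mean over 15 arrays was used per gene, which gave 19938 genes.

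Differences were fitted with limma 3.58.1 in R 4.3.3, on 9 arrays for pairs among the CD11b+ subsets and CD103+CD11b- DCs and on 15 arrays otherwise, and p-values were adjusted by Benjamini-Hochberg over all genes. Tests were tried on simulated data, and no result of that trial is given or used here. Alternatives were the replicate number as a block, a trend or array weights in the variance, other arrays in the fit, the mean of a gene's probesets, centring of arrays, a limit on dim genes, Student's *t*-test, which the methods name, and leaving out each array. Leaving out the arrays richest in pancreatic transcripts and dropping the limit on the log2 difference were added after seeing the data. The fit on 9 arrays estimates the spread from 3 subsets. Figures were drawn in matplotlib 3.10.9 (Python 3.11.15), with tables from pandas 2.3.3.

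The 10 genes and the marker and pathway lists were chosen with earlier results of these data known. Named are the 10 genes, other pathway genes that passed in a pair (up to 4 per role), the sort genes, and the 3 genes most like each member. *C1qc*, *Flt3* and *Zbtb46* from the marker lists, and the β chain genes that did not pass, were chosen after their values were seen. Promoter windows are from RefSeq on GRCm38.p6. Precision is limited by 3 arrays per population.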

Additional observations from a re-analysis of the deposited data

Results flagged for a closer look

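The difference in *Tgfbi* between CD103+ and CD103- DCs was not the same in both CD11b classes of DC. The difference of CD103+ from CD103- DCs was -2.80 in CD11b+ DCs and -1.14 in CD11b- DCs, and the test of the interaction gave -1.65 with an adjusted p of 0.00148 by limma. All CD103+ arrays were below all CD103- arrays in both classes. Without the array richest in pancreatic transcripts of each population the interaction was -1.37 (adjusted p = 0.0282 by limma) and no longer passed.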

How the results depend on the processing

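No member changed direction where it passed in any alternative that was run. For mϕ against the DC mean, every alternative run that kept the limit on the log2 difference gave 6 members higher and 0 lower; no limit gave 7 higher and 1 lower, adding *Tgfb1* (0.69, adjusted p = 2.8e-04) and *Smad7* (-0.57, adjusted p = 0.00256). The *t*-test was run for pairs only. With the replicate number as a block, 2 members passed in CD103+CD11b+ against CD103+CD11b- DCs, 6 in mϕ against the DC mean and 1 in the interaction, and the block changed no member's call. The numbers were not taken to pair the arrays, since not every same-numbered pair correlated over 0.1: 18 of 30 did, and 7 of 9 among the 3 DC subsets fitted together. Their mean was 0.12, against -0.06 for other pairs, and their lowest -0.09. Deviations from each population's mean were correlated, so the mean of other pairs is tied to that of same-numbered pairs and is no separate reference.

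The larger moves in the counts of members passing were as follows. The shares of all genes given with the comparisons above belong to the main thresholds. They are no reference for counts under other rules, here or in the paragraph above, and those counts are not read as shares. For CD103+CD11b+ against CD103+CD11b- DCs, with 2, the methods' *t*-test at p under 0.05 gave 6, after Benjamini-Hochberg 0, and leaving out the arrays richest in pancreatic transcripts 1, *Smad7*, with *Tgfbi* at -1.06 (adjusted p = 0.0189). For CD103-CD11b+ against CD103+CD11b- DCs, with 1, the *t*-test gave 5 and 2 after Benjamini-Hochberg, no limit on the log2 difference gave 4, and leaving out single arrays 1 to 2. For CD103+CD11b+ against CD103-CD11b+ DCs, with 1, the *t*-test after Benjamini-Hochberg gave 0. For CD103-CD11b- against CD103+CD11b+ DCs, with 1, the *t*-test gave 3 and 0 after Benjamini-Hochberg, the pancreatic set 2, no limit 2, and leaving out single arrays 1 to 2. For CD103-CD11b- against CD103+CD11b- DCs, with 1, the *t*-test gave 4 and no limit 3, and against CD103-CD11b+ DCs, with 0, the *t*-test gave 2. The interaction gave 0, against 1, without the pancreatic-rich arrays, a set with fewer arrays. Leaving out single arrays gave 6 to 7 for mϕ against CD103+CD11b- and against CD103-CD11b- DCs, and the main count elsewhere. *Smad3* in mϕ lost its call under the *t*-test after Benjamini-Hochberg against 3 DC subsets (adjusted p of 0.0594 to 0.0739). Smaller moves are not all listed. Among them, dropping the limit added *Tgfb1* in CD103+CD11b+ against CD103+CD11b- DCs (0.51, adjusted p = 0.00323 by limma). The *t*-test at p under 0.05 added *Tgfb1* and *Itgb8* in mϕ against CD103+CD11b- DCs, and *Smad7* in mϕ against CD103-CD11b+ DCs. The cause of these changes was not tested otherwise.

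Every population has 3 arrays, RMA values carry no detection call, and *Itgb8* and the DC signals of *Zfyve9* lie where array signals are compressed. The number of mice per array is not given in the sources used here.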
